A study of Mus musculus with 6 samples.

Results

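Kindlin-3 mutant macrophages were compared with wild-type macrophages over both culture conditions at once, with the effect of treatment taken out. All 6 libraries of the series entered the comparison, 4 from mutant and 2 from wild-type mice. Of 12689 genes tested, 256 passed a false discovery rate of 0.05, lay in all 4 mutant libraries on one side of both wild-type libraries, and so had the same direction in both treatments. Transcripts of pancreatic enzymes and hormones were to be left out by rule, and none was among the 256.

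Bone marrow cells of mice labelled C57/BL6 (wild type) and C57BL/6-Kindlin3-integrin mutant were turned into macrophages over 7 days by conditioned medium of L929, a mouse fibroblast line whose secreted growth factor drives macrophage formation. They were then kept for 24 hours with 50 µg/ml oxidised low-density lipoprotein (oxLDL) or without it. Each treatment was represented by 2 mutant libraries and 1 wild-type library. The labels do not give the age or sex of the mice, whether littermates were used, or the kind of mutation, and they do not say that libraries of one group came from separate animals. The p-values therefore measure the spread between these libraries, which may be technical. The single wild-type library of each treatment has no replicate. The additive fit takes its spread from the mutant pairs and from how far the genotype difference varied between treatments. The comparisons within each treatment take it from the mutant pairs alone. Any difference in strain background or between the individual mice and cultures used cannot be told apart from genotype in this design.

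Kindlin-3, encoded by Fermt3, is the kindlin of blood cells. It binds the cytoplasmic tails of integrin beta subunits and, together with talin, switches integrins to the state that binds ligand firmly. In macrophages integrins carry adhesion, spreading, migration and the uptake of complement-coated particles, and the proteins gathered at the integrin tails are called the adhesome.

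Between 11281659 and 24273497 counts were assigned to genes per library, so that 3 counts correspond to 0.122 to 0.265 CPM (counts scaled to a fixed library size, with trimmed mean of M-values factors). Neither mutant pair was the same library in duplicate, since the variance between its members exceeded Poisson counting by a median factor of 4.85 without and 7.19 with oxLDL. All 20 macrophage identity genes were measured in every library, and their summed level was 28966 to 45409 CPM in mutant and 25470 to 34361 CPM in wild type. Much of that sum was Lyz2, at 10609 to 20971 CPM in mutant and 8900 and 5686 CPM in wild type untreated and oxLDL. The median difference of the 20 genes was -0.14 on the log2 scale. Within each treatment both mutant libraries lay below wild type for 9 of them (22.3% of all genes) and above for 3 (21.8%). Summed pancreatic transcripts reached 212 and 168 CPM with oxLDL in the mutant and 285 CPM without it in wild type, and stayed between 0.354 and 0.706 CPM in the other 3 libraries. That split crosses genotype, and within either side of it genotype and treatment cannot be told apart. With these genes removed before the fit, 284 genes met the rule, the 256 among them.

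Fermt3 itself was transcribed in every library. It measured 241 and 249 CPM in mutant untreated, 146 and 153 CPM in mutant oxLDL, 403 CPM in wild type untreated and 188 CPM in wild type oxLDL. The mutant was lower within each treatment, but the untreated mutant libraries lay above wild type oxLDL, so the levels overlapped. The adjusted difference was -0.53 ± 0.11 on the log2 scale (SE) and did not pass edgeR's quasi-likelihood test (adjusted p = 0.0517). With 1 library left out it ranged from -0.32 without wild type untreated (adjusted p = 0.262) to -0.72 without wild type oxLDL (adjusted p = 0.0261), the 1 of these 6 fits that it passed. Over all 14 alternatives it passed 6, with adjusted p from 0.00106 by DESeq2 to 0.262. Of 43 tested genes beside Fermt3 on chromosome 19, none was called, beside 4.05% of all genes tested. At that share a list of this size would hold few calls, so this does not show the region to be alike in both genotypes.

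Of the 12689 genes, 4.05% (514) were called for genotype, 322 higher in the mutant (2.54%) and 192 lower (1.51%). Without regard to the test, the 4 mutant libraries lay above both wild-type libraries for 1077 genes (8.49%) and below both for 987 (7.78%). The 256 genes that met both conditions (2.02%) comprised 185 higher (1.46%) and 71 lower (0.56%). The increases were larger: their median was 1.87 on the log2 scale against -0.74 for the decreases and -0.01 over all genes tested. At least 2-fold differences were seen for 158 of the higher and 24 of the lower genes, and at least 8-fold differences for 48 and 9. In wild type 54 of the 185 averaged under 1 CPM, and 7 had no count there. The rule has a sharp edge: Gmpr lay just inside (adjusted p = 0.04998) and Ivd just outside it (adjusted p = 0.05013).

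These counts depended on single libraries. The 256 became 25 without mutant untreated replicate 1, 7 without mutant untreated replicate 2, 105 without mutant oxLDL replicate 1 and 481 without mutant oxLDL replicate 2. They became 40 without wild type untreated and 761 without wild type oxLDL. Of the 256, 5 passed with any library left out: Slc7a2, Tmem181b-ps, BC002163, Il18bp and the transcript model 8430408G22Rik. The rules given with the methods named 58 genes, 53 of them called. Of these 53, 4 kept the call without mutant untreated replicate 2, 14 without mutant untreated replicate 1 and 14 without wild type untreated. None of the 58 reversed direction under any alternative. For many genes below, Mki67, Cd38, Rap1b and Dhx58 among them, the largest adjusted p came without wild type untreated.

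**Figure D1:**
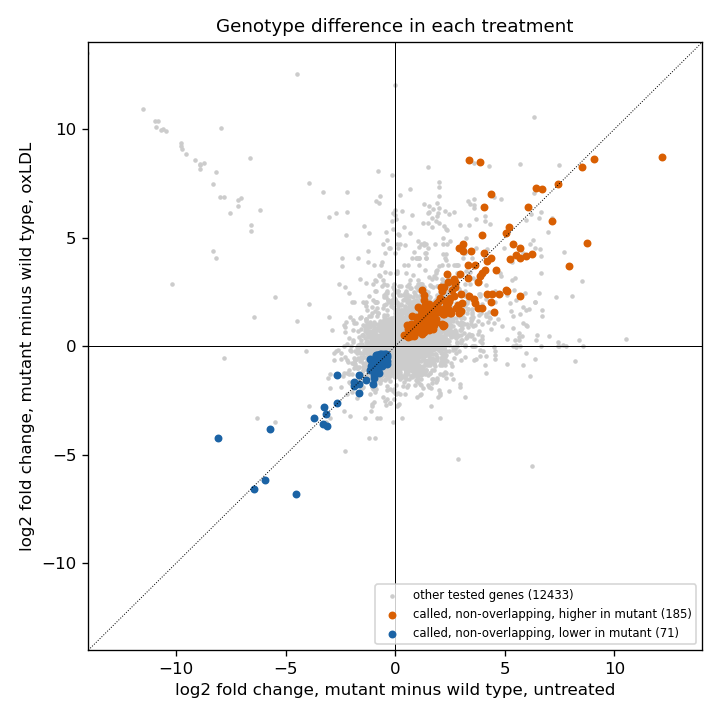
Log2 fold change of mutant over wild type in untreated cells (horizontal axis) and in oxLDL-treated cells (vertical axis), 1 point per tested gene. The dotted line marks equal change. The 185 higher and 71 lower genes lie to the upper right and lower left, as the rule requires, and grey points far from 0 include pancreatic transcripts in the upper left.

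Within each treatment the same genes could be read separately, each time against 1 wild-type library. Summed pancreatic transcripts were 0.706 and 0.354 CPM in mutant untreated against 285 CPM in wild type untreated. They were 212 and 168 CPM in mutant oxLDL against 0.447 CPM in wild type oxLDL. Within each treatment genotype therefore cannot be told apart from that split. In untreated cells 896 genes were called (7.06%), and in oxLDL-treated cells 61 (0.481%). Of the 256 genes, 156 were called in untreated cells and 27 in oxLDL-treated cells, all 27 in both (0.402% of all genes were), and 100 were called in neither alone. The 256 were chosen from these same libraries. Their calls within a treatment are therefore no separate support, here and below. The difference was larger in untreated cells for 166 of the 256. A difference between treatments in the size of the genotype effect was itself called for 62 genes of the whole table (0.489%), none of which was among the 256. The additive fit counts such a difference as spread and so tends to leave these genes out. Their absence therefore does not show that the treatments were alike. This difference also cannot be told apart from the pancreatic split. Of the 256 genes 41% also responded to oxLDL across genotypes, beside 40.5% of all genes tested.

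Adhesion genes were called in both directions. Of 51 tested genes of the kindlin, talin and adhesome list 2 were called higher and 3 lower, with a median of -0.23, beside 2.54% and 1.51% of all genes tested. Tns1, which encodes tensin-1, an adaptor that links integrin tails to actin, measured 73.3 and 62.7 CPM in mutant untreated, 218 and 179 CPM in mutant oxLDL, 12.3 CPM in wild type untreated and 62.4 CPM in wild type oxLDL. The lowest mutant library was barely above wild type oxLDL, and oxLDL raised the gene in both genotypes. It rose by 2.03 ± 0.21 on the log2 scale (SE; edgeR adjusted p = 0.0157). Src, the tyrosine kinase that signals from engaged integrins, measured 24.7, 21.1, 30.1 and 22.8 CPM in the 4 mutant libraries and 6.60 and 13.5 CPM in wild type untreated and oxLDL. It rose by 1.35 ± 0.23 (adjusted p = 0.0386), with no overlap between genotypes.

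The 3 adhesome genes that fell work near Rap1, the small GTPase that recruits talin to integrins. They were singled out after their values were seen, since their levels overlapped across treatments although the mutant was lower within each. Apbb1ip, which encodes the Rap1 effector RIAM, measured 580 and 690 CPM in mutant untreated against 1319 CPM in wild type, and 224 and 197 CPM in mutant oxLDL against 331 CPM. It fell by 0.86 on the log2 scale (SE 0.14; edgeR adjusted p = 0.0344). Rap1b itself fell by 0.65 (adjusted p = 0.0447), and Evl, an actin-elongating Ena/VASP protein gene, by 0.75 (adjusted p = 0.0382). Without mutant untreated replicate 2 the adjusted p of these 5 adhesome genes was 0.0887 (Tns1) to 0.151 (Rap1b), so none of these calls held.

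Among 19 tested integrin genes 2 were called higher and 1 lower (2.54% and 1.51% of all genes), and their median was -0.06. Itgax, the alpha X subunit CD11c of complement receptor 4, was the clearest: 42.5 and 46.6 CPM in mutant untreated, 44.5 and 58.7 CPM in mutant oxLDL, 6.14 CPM in wild type untreated and 13.7 CPM in wild type oxLDL. All 4 mutant values lay more than 3-fold above the higher wild-type value, and the gene rose by 2.35 ± 0.25 (edgeR adjusted p = 0.0163). Its neighbour Itgad, the alpha D subunit, measured 1.32, 1.13, 1.22 and 1.29 CPM in the mutant and had no count in wild type, which makes it at least 14.5-fold higher against a floor of 3 counts over both wild-type libraries (adjusted p = 0.0276). Since 12.2% of Itgad's 75-base stretches are shared with other genes, among them Itgax at 7.49%, its low counts are uncertain.

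Itgax also marks dendritic cells. The summed level of 14 dendritic markers, Itgax included, was 156 to 209 CPM in mutant and 152 to 172 CPM in wild type. Besides Itgax the sum was mostly Irf8, at 95.5 to 141 CPM in mutant and 135 and 154 CPM in wild type. In every library 9 of the 14 stayed under 1 CPM. Itgax was the 1 called among the 6 tested. Of these 6, 2 had a positive difference (48.8% of all genes did), and their median was -0.19. Whether a change in the mix of cells took part in the Itgax difference was not tested. In bulk RNA a change in the number of cells of a type and a change in RNA per cell cannot be told apart, here and below.

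The beta subunits that kindlin-3 binds did not pass. Itgb1 measured 706 to 832 CPM in mutant and 842 to 850 CPM in wild type (-0.11 ± 0.10, adjusted p = 0.550), and Itgb2 654 to 877 CPM against 882 to 1157 CPM (-0.46 ± 0.10, edgeR adjusted p = 0.0616). Itgb2 was lower in every mutant library than in either wild-type library, by a margin of 877 to 882 CPM at the closest. Itgb3 measured 14.6 and 7.71 CPM in mutant against 0.870 CPM in wild type without oxLDL, and 176 and 65.6 CPM against 60.8 CPM with oxLDL (1.72 ± 0.66, adjusted p = 0.176). Itgam, the alpha M subunit CD11b, differed by -0.89 ± 0.26 (adjusted p = 0.104), and 65.2% of its 75-base stretches are shared with an overlapping gene model. Itga9, the alpha 9 subunit, measured 61.0 and 79.9 CPM against 147 CPM untreated and 6.08 and 7.88 CPM against 13.0 CPM with oxLDL, and fell by 0.99 (edgeR adjusted p = 0.0328). That call ended without mutant untreated replicate 2 (adjusted p = 0.114), as did those of Itgax (0.0887) and Itgad (0.118).

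**Figure D2:**
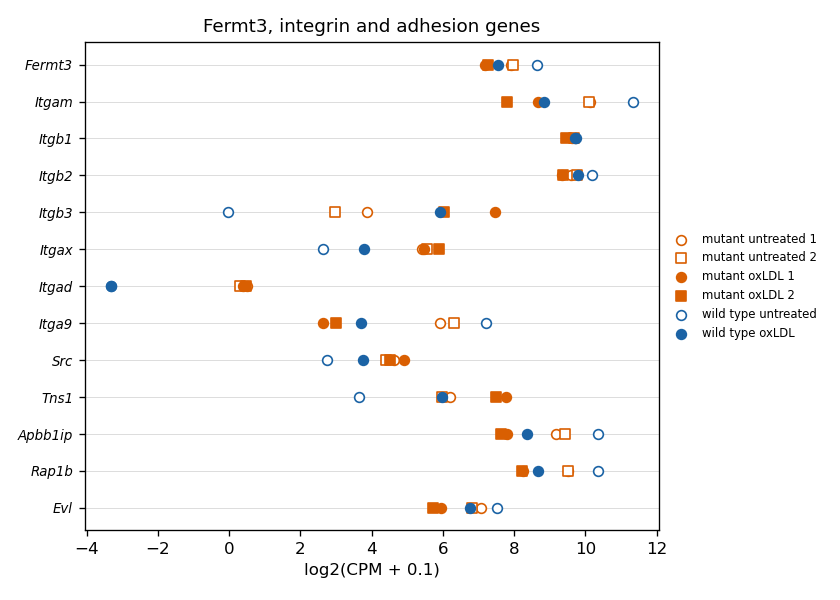
Level of Fermt3 and 12 integrin and adhesion genes in each library, as log2(CPM + 0.1) on the horizontal axis, 1 point per library. Orange marks mutant and blue wild type, open symbols untreated and filled symbols oxLDL. Itgax, Itgad, Src and Tns1 have all orange points to the right of both blue ones, whereas Fermt3, Apbb1ip, Rap1b and Itga9 are separated within each treatment and shifted by oxLDL.

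No gene was called among 35 of actin and the serum response factor (median -0.33), 23 of transforming growth factor beta signalling (median -0.14), 24 immediate early genes (median -0.05) or 28 cytokine and NF-kB genes (median 0.01). At the 4.05% called over all genes, lists of this size would hold few calls, so this does not show them to be unchanged. Among 36 matrix and protease genes 2 were called higher and 1 lower (2.54% and 1.51% of all genes). Mmp14, the membrane-anchored collagenase, measured 330 and 285 CPM against 135 CPM untreated and 90.3 and 64.1 CPM against 33.3 CPM with oxLDL, a 2.30-fold rise (SE 0.16 on the log2 scale; edgeR adjusted p = 0.0244). Tnc, the matrix glycoprotein tenascin C, was near the detection limit with oxLDL but measured 5.91 and 8.63 CPM against 0.563 CPM untreated (3.71 ± 0.49, adjusted p = 0.0244). Both had overlapping levels across treatments, were chosen after their values were seen, and lost the call without mutant untreated replicate 2 (adjusted p = 0.0997 and 0.124).

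Genes of DNA replication and mitosis held the most calls of any list described. Of 40 tested, 19 were called higher in the mutant and none lower, against 2.54% of all genes called higher. The median was 1.69 on the log2 scale, beside -0.01 over all genes tested. Within each treatment both mutant libraries exceeded wild type for 34 of the 40, as they did for 21.8% of all genes. Across genotypes 38 of the 40 were called lower with oxLDL, beside 40.5% of all genes called for oxLDL in either direction. Both mutant oxLDL libraries lay below wild type untreated for 11 of the 40, and mutant oxLDL replicate 2 alone for 38. The same counts were not made over all genes. Of the 19, Mki67 met the full rule.

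Mki67, the proliferation antigen Ki-67, measured 1156 and 1130 CPM in mutant untreated, 546 and 187 CPM in mutant oxLDL, 178 CPM in wild type untreated and 74.5 CPM in wild type oxLDL. Its lowest mutant value was just above the higher wild-type value. It rose by 2.49 ± 0.44 (edgeR adjusted p = 0.0400). Top2a, the topoisomerase that untangles replicated chromosomes, measured 559 and 572 CPM against 123 CPM untreated and 172 and 72.8 CPM against 31.4 CPM with oxLDL (2.08 ± 0.34, adjusted p = 0.0370). Ccnb2, a mitotic cyclin, measured 56.5 and 54.5 CPM against 11.7 CPM and 15.2 and 6.69 CPM against 2.11 CPM (2.29 ± 0.34, adjusted p = 0.0324). Mutant oxLDL replicate 2 had the lowest level of the 4 mutant libraries for all 40 genes. That count too was not made over all genes, and across genotypes 38 of the 40 were called lower with oxLDL.

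The count of 19 fell to 0 without mutant untreated replicate 1, without mutant untreated replicate 2 and without wild type untreated. It was 13 without mutant oxLDL replicate 1, 34 without mutant oxLDL replicate 2 and 11 without wild type oxLDL. Mki67 had an adjusted p of 0.133 without mutant untreated replicate 2.

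**Figure D3:**
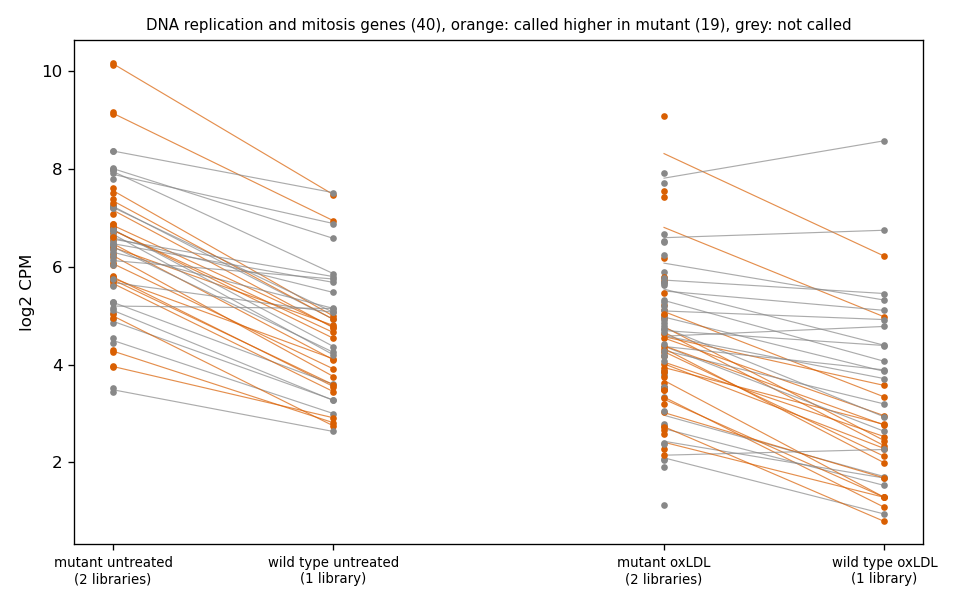
Level of 40 DNA replication and mitosis genes as log2 CPM on the vertical axis, by genotype and treatment on the horizontal axis. Each point is 1 gene in 1 library and each line joins the mean of the mutant pair to the wild-type library. The 19 called genes are orange. Lines slope down towards wild type in both treatments for 34 genes with both mutant points above. With oxLDL 38 of the 40 genes were called lower across genotypes, beside 40.5% of all genes called for oxLDL in either direction.

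Promoters of genes that peak in mitosis commonly hold CCAAT boxes, bound by NF-Y, and the cell cycle homology region, which contains TTTGAA. The stretch from 200 bases before to 20 after the annotated start (RefSeq, GRCm38.p6) was searched on both strands for CCAAT, which reads ATTGG on the other strand, and for TTTGAA, which reads TTCAAA. Neither motif contains the other. RefSeq promoters matched 32 of the 40 genes, 15 of them called. CCAAT was present in 25 of the 32 and in 31.0% of all 32851 promoters, TTTGAA in 12 and in 13.4%, and both in 12 and in 4.23%. Among the 15 called genes both were present in 9. A gene counted if any of its promoters held the motif, while the shares of all promoters were taken per promoter. Genes with several promoters had more chances, so the shares differ in unit. The matches are of letters, and no binding was measured. The 4 promoters below belong to called genes that hold both, and capitals mark the matches.
Cdc20 (activator of the anaphase-promoting complex; chr4:118437324-118437543, minus strand): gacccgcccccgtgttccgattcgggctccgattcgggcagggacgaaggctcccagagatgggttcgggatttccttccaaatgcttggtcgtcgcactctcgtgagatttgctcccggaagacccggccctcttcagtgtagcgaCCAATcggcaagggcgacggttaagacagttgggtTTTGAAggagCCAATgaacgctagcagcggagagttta
Cdc45 (helicase cofactor of replication; chr16:18811953-18812172, minus strand): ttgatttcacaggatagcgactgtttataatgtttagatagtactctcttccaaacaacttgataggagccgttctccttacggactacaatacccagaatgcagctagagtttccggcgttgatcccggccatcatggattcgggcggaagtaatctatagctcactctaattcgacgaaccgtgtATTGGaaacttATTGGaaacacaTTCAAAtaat
Ccnb2 (chr9:70421535-70421754, minus strand): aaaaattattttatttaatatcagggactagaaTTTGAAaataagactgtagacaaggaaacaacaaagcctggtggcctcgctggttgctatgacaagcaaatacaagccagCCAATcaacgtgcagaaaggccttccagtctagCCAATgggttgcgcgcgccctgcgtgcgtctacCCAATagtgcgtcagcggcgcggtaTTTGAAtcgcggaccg
Ect2 (exchange factor of cytokinesis; chr3:27153859-27154078, minus strand): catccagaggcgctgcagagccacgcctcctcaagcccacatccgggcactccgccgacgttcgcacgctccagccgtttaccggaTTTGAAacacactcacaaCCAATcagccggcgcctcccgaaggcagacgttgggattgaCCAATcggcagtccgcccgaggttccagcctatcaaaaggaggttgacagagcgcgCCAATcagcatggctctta

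Cdc20 measured 31.0 and 32.8 CPM against 6.70 CPM untreated and 9.13 and 4.80 CPM against 1.73 CPM with oxLDL (2.16 ± 0.29, edgeR adjusted p = 0.0247). Ect2 measured 53.6 and 52.9 CPM against 12.0 CPM and 23.3 and 11.2 CPM against 4.86 CPM (2.01 ± 0.31, adjusted p = 0.0328). Cdc45 measured 19.1 and 19.7 CPM against 7.01 CPM and 9.94 and 6.59 CPM against 3.20 CPM (1.42 ± 0.20, adjusted p = 0.0309). Each was above wild type in all mutant libraries of the same treatment.

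The largest increases with non-overlapping levels included receptors, secreted proteins and transporters. Il1r1, the signalling receptor of interleukin-1, measured 11.5 and 7.57 CPM in mutant untreated, 91.7 and 82.7 CPM in mutant oxLDL, 0.563 CPM in wild type untreated and 1.02 CPM in wild type oxLDL. Mutant cells were above wild type in both conditions, more than 50-fold so with oxLDL. It rose by 5.61 ± 0.50 (edgeR adjusted p = 0.00986) and kept its call except without mutant untreated replicate 2 (adjusted p = 0.0643). Slc7a2, the cationic amino acid transporter that imports arginine in macrophages, measured 11.9 and 12.3 CPM in mutant untreated, 35.0 and 32.5 CPM in mutant oxLDL, 0.665 CPM in wild type untreated and 2.24 CPM in wild type oxLDL. The mutant pairs agreed closely and oxLDL raised the gene in both genotypes. It rose by 4.01 ± 0.16 (edgeR adjusted p = 0.000557) and the call held without any single library, with an adjusted p of at most 0.0181.

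Ifi44l, an interferon-inducible gene, measured 27.1 and 37.6 CPM in mutant untreated and 1.46 and 4.61 CPM in mutant oxLDL and had no count in wild type. It was at least 162-fold higher against a floor of 3 counts over both wild-type libraries (edgeR adjusted p = 0.0244). Against the floor of the single wild-type library of the same treatment, the mutant libraries were at least 176-fold and 245-fold higher untreated, and 7.61-fold and 24.0-fold with oxLDL. Elavl4, a neuronal RNA-binding protein gene, measured 20.1 and 11.6 CPM in mutant untreated and 0.527 and 0.198 CPM in mutant oxLDL, with 2 counts over both wild-type libraries. The ratio of scaled counts was 102, with a 95% counting interval from 28.2 to 848 (adjusted p = 0.0160). Cd209c, a C-type lectin of the DC-SIGN family, measured 51.8 and 53.4 CPM in mutant untreated, 7.06 and 6.44 CPM in mutant oxLDL, and 1.53 and 1.15 CPM in wild type untreated and oxLDL. It was called in each treatment alone, by 5.09 untreated (adjusted p = 0.00320) and 2.55 with oxLDL (adjusted p = 0.0234). Cxcl14, a chemokine, measured 12.5, 24.8, 7.46 and 19.2 CPM in the mutant and 0.767 and 1.15 CPM in wild type, a rise of 4.06 ± 0.62 (edgeR adjusted p = 0.0328). Without mutant untreated replicate 2 the adjusted p of these 4 genes was 0.0717 (Elavl4) to 0.116 (Ifi44l and Cd209c), and without wild type untreated it was 0.164 for Ifi44l, 0.324 for Elavl4 and 0.165 for Cxcl14.

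Other genes with large increases ranged from 3.83 (Slc36a2, a proton-coupled amino acid transporter) to 5.06 (Igsf3, an immunoglobulin superfamily membrane protein) on the log2 scale. Between them lay Eltd1, an adhesion G protein-coupled receptor, at 4.78, Dock3, a Rac exchange factor, at 4.66, Akap2, a protein kinase A anchoring protein, at 4.41, and Angptl7, an angiopoietin-like secreted protein, at 4.29. Mgll, the lipase of monoacylglycerols, rose by 4.04, Pappa2, a protease of growth factor binding proteins, by 3.98, and Zdhhc15, a palmitoyltransferase, by 3.87. Of Akap2's stretches 82.3% are shared with an overlapping gene model, which leaves its level uncertain. All 9 lost the call without mutant untreated replicate 2, at adjusted p from 0.0643 (Angptl7) to 0.146 (Slc36a2). Leaving out wild type untreated moved Zdhhc15 to 8.55 and Slc36a2 to 2.34. The levels of these genes in mutant cells ran from 0.920 CPM (Pappa2, untreated) to 223 CPM (Akap2, oxLDL).

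Some increases were smaller and tighter. Ryk, a Wnt receptor, measured 12.1, 12.6, 16.2 and 16.8 CPM in the mutant and 3.89 and 4.86 CPM in wild type, a rise of 1.71 ± 0.13 (edgeR adjusted p = 0.00943). Fam135a measured 13.9, 13.6, 18.2 and 18.8 CPM against 4.76 and 6.14 CPM (1.56 ± 0.12, adjusted p = 0.00943). Both pairs of mutant libraries nearly coincided, and both genes were called in each treatment alone. Csf1, the macrophage growth factor, measured 20.1, 16.8, 49.0 and 21.3 CPM against 3.94 and 11.4 CPM (1.89 ± 0.37, adjusted p = 0.0480). Fabp3, a fatty acid binding protein with 26.0% shared stretches, rose by 2.31 ± 0.39 (adjusted p = 0.0380), Cd80, a costimulatory ligand of T cells, by 1.25 ± 0.16 (adjusted p = 0.0236), and Clec4e, the lectin Mincle, by 1.46 ± 0.28 (adjusted p = 0.0453). Of these genes Ryk, Fam135a, Csf1, Fabp3, Cd80 and Clec4e all lost the call without mutant untreated replicate 2, at adjusted p between 0.0643 and 0.146. For Csf1, Fabp3, Cd80 and Clec4e the largest adjusted p came without wild type untreated, which leaves 1 wild-type library.

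**Figure D4:**
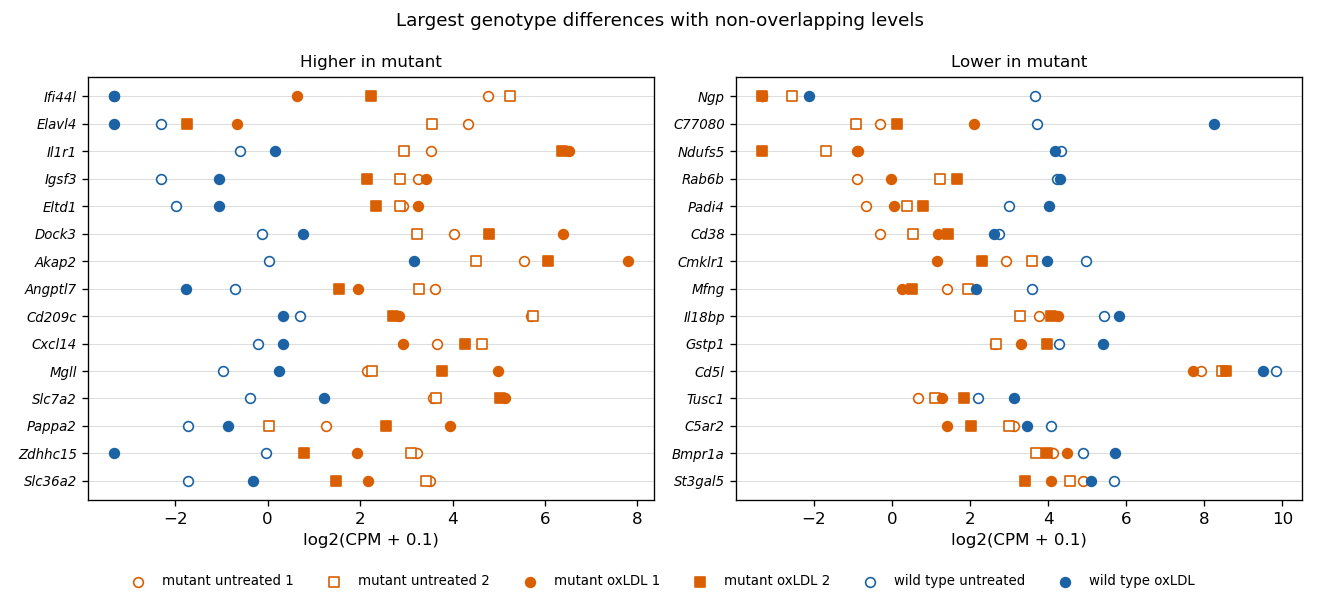
Level in each library, as log2(CPM + 0.1) on the horizontal axis, of the 15 largest increases (left) and 15 largest decreases (right) that met the rule with at least 5 CPM in the higher genotype. Orange marks mutant and blue wild type, open symbols untreated and filled symbols oxLDL, and libraries without a count sit at the left edge. The gap between colours is wide for Il1r1, Slc7a2, Ndufs5 and Padi4 and narrow for Gstp1 and C5ar2.

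The decreases included several immune receptors and secreted immune proteins. Il18bp, the secreted decoy that neutralises interleukin-18, measured 13.4 and 9.69 CPM in mutant untreated, 19.1 and 16.9 CPM in mutant oxLDL, 42.7 CPM in wild type untreated and 56.4 CPM in wild type oxLDL. All mutant values were far below both wild-type values. It fell by 1.77 (SE 0.15; edgeR adjusted p = 0.00943) and passed without any single library, with an adjusted p of at most 0.0493. Cd5l, a secreted scavenger protein of macrophages, measured 240.4, 352, 208 and 374 CPM in the mutant against 918 and 726 CPM, a fall of 1.48 (SE 0.25; adjusted p = 0.0385). Cmklr1, the chemerin receptor, fell by 1.91 (adjusted p = 0.0383), C5ar2, the second receptor of complement C5a, by 1.38 (adjusted p = 0.0389) and Cd38, an NAD-consuming ectoenzyme, by 1.97 (adjusted p = 0.0447).

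Padi4, which converts arginine in histones to citrulline, measured 0.529 to 1.63 CPM in the 4 mutant libraries, 7.88 CPM in wild type untreated and 16.3 CPM in wild type oxLDL. The mutant stayed under 2 CPM in each library. It fell by 3.44 (SE 0.33; edgeR adjusted p = 0.0128). Rab6b, a Golgi GTPase, fell by 3.51 (SE 0.54; adjusted p = 0.0328), and C77080 fell by 6.37 (SE 0.60; adjusted p = 0.0126), from 13.0 and 304 CPM in wild type untreated and oxLDL to at most 4.18 CPM in the mutant. Mfng, a glycosyltransferase that modifies Notch, fell by 1.87, Tusc1 by 1.45, Bmpr1a, a receptor of bone morphogenetic proteins, by 1.23 and St3gal5, the synthase of ganglioside GM3, by 1.13. Gstp1, a glutathione transferase with 29.2% of its stretches shared with Gstp2, fell by 1.69. Without mutant untreated replicate 2 the adjusted p of the decreases in this paragraph was 0.0643 (Padi4) to 0.139 (St3gal5), and for Cd38, Cd5l, Cmklr1 and C5ar2 it was 0.118 to 0.151.

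Ngp, a granule protein of immature neutrophils, measured 12.5 CPM in wild type untreated and 0.128 CPM in wild type oxLDL, with 1 count in the 4 mutant libraries. Its adjusted p was 0.00943. S100a9 (9.92 CPM) and Ltf (8.29 CPM) were likewise high in wild type untreated and at most 0.212 CPM elsewhere. The summed level of 15 neutrophil markers was 213 CPM in wild type untreated against 82.0 to 138 CPM in the other 5 libraries, with 7 markers under 1 CPM throughout. Ngp is therefore a difference of 1 library, and it was not tested without wild type untreated because it did not pass the count filter there. Chil3, a chitinase-like protein of alternative activation, measured 4.40 and 1.02 CPM in wild type and at most 0.142 CPM in the mutant (adjusted p = 0.0361), and 13.0% of its stretches are shared. Leaving out mutant untreated replicate 2 ended the Chil3 call (edgeR adjusted p = 0.137), and its largest adjusted p came without wild type untreated.

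The C1q chains and 3 lectin genes were lower in the mutant within each treatment, with levels that overlapped across treatments. They were named after their values were seen. Of 27 tested complement and phagocytosis genes 3 were called lower and 1 higher (1.51% and 2.54% of all genes), with a median of -0.40. C1qa, a chain of the complement recognition protein C1q, measured 236 and 309 CPM against 834 CPM untreated and 29.3 and 29.8 CPM against 132 CPM with oxLDL. It fell by 1.89 (SE 0.16; edgeR adjusted p = 0.00943) and passed without any single library, with an adjusted p of at most 0.0477. The other chains moved the same way: C1qb measured 768 and 754 CPM against 1409 CPM and 228 and 215 CPM against 453 CPM, and C1qc 722 and 678 CPM against 1342 CPM and 223 and 192 CPM against 423 CPM. They fell by 0.96 (adjusted p = 0.0128) and 0.98 (adjusted p = 0.0157), and leaving out mutant untreated replicate 2 ended both calls (adjusted p = 0.0874 and 0.0887). Fcgr2b, the inhibitory Fc receptor, was the member that rose, by 0.57 ± 0.09 (adjusted p = 0.0335), at 54.3 to 68.2 CPM in mutant and 37.3 and 46.1 CPM in wild type.

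Of 15 tested genes of the C-type lectin list, which does not hold Cd209c, 3 were called lower and 2 higher (1.51% and 2.54% of all genes). The neighbouring genes Clec4a1, Clec4a2 and Clec4a3, whose family includes the inhibitory receptor DCIR, all fell, by 0.98, 0.72 and 1.02 (edgeR adjusted p = 0.0171, 0.0491 and 0.0253). Clec4a1 measured 663 and 639 CPM against 1256 CPM untreated and 42.7 and 34.5 CPM against 78.5 CPM with oxLDL. Cd207, which encodes langerin, measured 15.5 and 19.8 CPM in mutant untreated and 1.48 CPM in wild type untreated and had no count in any oxLDL library, so its call (adjusted p = 0.0324) rests on untreated cells. Without mutant untreated replicate 2 the adjusted p of the 3 Clec4a genes was 0.0945 to 0.164, that of Cd207 0.146 and that of Fcgr2b 0.117.

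Interferon-stimulated genes of a list that does not hold Ifi44l leaned lower. Of 44 tested, 5 were called lower and 1 higher (1.51% and 2.54% of all genes), the median was -0.31, and 23 were below wild type in both mutant libraries of each treatment (22.3% of all genes were) against 3 above (21.8%). Irf7, the transcription factor that amplifies type I interferon responses, measured 169 and 144 CPM against 388 CPM untreated and 10.8 and 8.17 CPM against 26.2 CPM with oxLDL, a fall of 1.38 (SE 0.13; edgeR adjusted p = 0.0122). Oas3, Ifih1, Zbp1 and Dhx58, which encode sensors and effectors of viral nucleic acid, fell by 0.72, 0.60, 0.83 and 0.51 (adjusted p from 0.0276 for Ifih1 to 0.0480 for Dhx58). Ifi44, a paralog of Ifi44l, went the other way, with 273 and 290.1 CPM against 121 CPM and 15.5 and 19.3 CPM against 2.81 CPM (1.69 ± 0.30, adjusted p = 0.0400). Without mutant untreated replicate 2 the adjusted p of these 6 genes was 0.0863 (Irf7) to 0.146 (Dhx58).

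No gene was called among 23 sterol synthesis genes (median 0.21), 36 lysosomal genes (0.00), 15 scavenger receptors (0.01) or 20 macrophage identity genes (-0.14). Of all genes tested 4.05% were called, and at that share lists of this size would hold few calls. The absence of calls therefore does not show these genes to be unchanged. At an unadjusted p under 0.05 the genotype test passed 3097 genes (24.4%), so these lists were read at the adjusted threshold.

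Ndufs5, a subunit of mitochondrial complex I, and BC002163, a gene model with nearly the same sequence, went in opposite directions. Ndufs5 measured 0.441, 0.212, 0.446 and 0 CPM in the mutant and 19.9 and 18.0 CPM in wild type (a fall of 6.08, SE 0.53; edgeR adjusted p = 0.00986). BC002163 measured 24.4, 26.9, 26.0 and 24.5 CPM in the mutant and 5.11 and 6.01 CPM in wild type (2.20 ± 0.13, adjusted p = 0.00543). Their sum was 24.9, 27.1, 26.4 and 24.5 CPM in the mutant and 25.1 and 24.0 CPM in wild type, a difference of 0.07 ± 0.10 (adjusted p = 0.711). The summed level did not separate the genotypes, whereas the share assigned to each copy did.

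Of BC002163's 75-base stretches 59.6% occur in Ndufs5. Over 319 aligned bases, counted from 1 at the start of the Ndufs5 coding sequence, the reference sequences differ at 2 positions, T81C and A105G, with the base of Ndufs5 first. Bases 61 to 125 hold both positions, shown in capitals, since a read over them can tell the copies apart.
Ndufs5: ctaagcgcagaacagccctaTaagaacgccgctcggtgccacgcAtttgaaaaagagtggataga
BC002163: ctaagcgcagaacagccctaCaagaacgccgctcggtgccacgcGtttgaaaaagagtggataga
Those are reference bases. Which bases the mutant or wild-type transcripts carry was not read here, and how reads were divided between the copies depends on the authors' RSEM estimate. Ndufs5 lost its call without mutant untreated replicate 2 (adjusted p = 0.0874), and BC002163 passed without any single library.

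**Figure D5:**
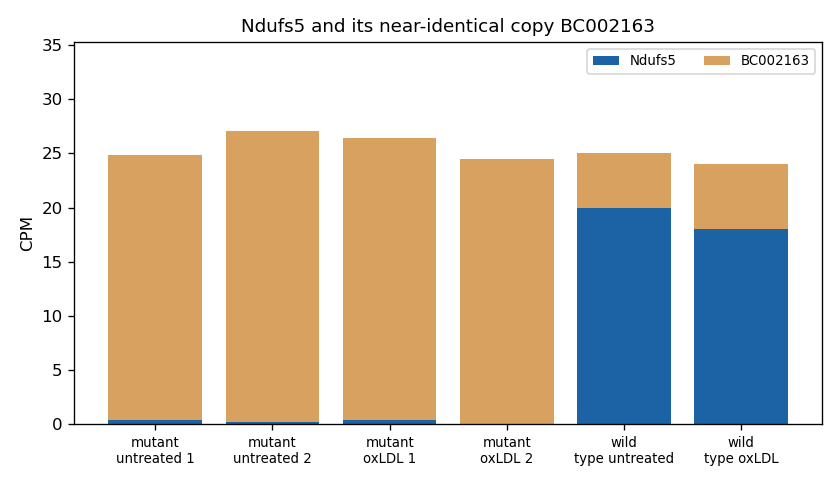
Level of Ndufs5 (blue) and BC002163 (tan) in CPM, stacked, in each of the 6 libraries. The stacks are 24.0 to 27.1 CPM high in all libraries, and blue makes up most of the stack in the wild-type libraries alone.

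BC002163 belongs to 15 tested genes on a list of differences among C57BL/6 substrains and related inbred mice, of which 1 was called higher and 2 lower (2.54% and 1.51% of all genes), all 3 with non-overlapping levels. Ide, the insulin-degrading protease, measured 97.4 and 100.2 CPM against 185 CPM untreated and 164 and 175 CPM against 311 CPM with oxLDL. It fell by 0.89 (SE 0.08; edgeR adjusted p = 0.00986). Its chromosomal neighbour in that list, Btaf1, a regulator of TATA-binding protein, measured 126, 137, 127 and 130.1 CPM against 209 and 191 CPM and fell by 0.62 (SE 0.08; adjusted p = 0.0238). In each treatment the 2 mutant libraries lay within 11 CPM of each other for both genes. Leaving out mutant untreated replicate 2 ended both calls (adjusted p = 0.0717 and 0.105).

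Some of the 256 genes lay near one another on the chromosome. By gene order in RefSeq (GRCm38), 254 of the 256 were placed, and 24.0% had another of the 256 among the 5 tested genes on either side, compared with 17.5% of all placed genes. There were 8 groups of at least 3. The group on chromosome 6 holds 4 Ly49 receptor genes, Klra17, Klra3, Klra1 and Klra22, which encode lectin-like receptors of natural killer and myeloid cells and differ in number between mouse strains. Klra17 measured 4.59, 2.76, 7.30 and 4.26 CPM in the mutant and 0.0511 and 0.320 CPM in wild type (4.73 ± 0.59, edgeR adjusted p = 0.0215). Klra22 measured 5.12, 2.62, 3.73 and 1.88 CPM and Klra1 4.15, 1.13, 2.92 and 1.44 CPM in the mutant, and neither had a count in wild type, so they were at least 37.5-fold and 27.4-fold higher (adjusted p = 0.0311 and 0.0480).

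Klra3 was the reverse, with 0.614 and 2.81 CPM in wild type and 1 count in the mutant, a ratio of 112 in favour of wild type with a 95% counting interval from 19.3 to 4496 (edgeR adjusted p = 0.0171). The gene list around this cluster was drawn up after these values were seen, and reads of such similar genes may be divided between them by the estimate, though shared stretches came to 6.39% for Klra3 and were not computed for Klra22. Without mutant untreated replicate 2 the adjusted p of the 4 genes was 0.0887 to 0.114.

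A group on chromosome 17 comprises Dynlt1b, Tmem181b-ps and Tmem181c-ps, all higher in the mutant. Tmem181b-ps, a pseudogene, measured 69.5, 73.5, 72.2 and 82.7 CPM in the mutant and 18.5 and 23.1 CPM in wild type. It was nearly constant within each genotype and rose by 1.85 ± 0.11 (edgeR adjusted p = 0.00543), a call that held without any single library (adjusted p of at most 0.0417). Of its stretches 41.1% are shared, mainly with Tmem181a. The others include Ptgfrn, Igsf3 and Vangl1 on chromosome 3, all higher, and Ipo13, Hyi and Tie1 on chromosome 4, of which 2 were higher and 1 lower.

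Tie1 and 2 other genes usually described in vessel walls stood out in the mutant, and a list of 16 endothelial and pericyte markers was drawn up after seeing them. Cspg4, the proteoglycan NG2, measured 45.1 and 78.5 CPM in mutant untreated, 10.5 and 20.6 CPM in mutant oxLDL and 2.86 and 2.94 CPM in wild type (3.46 ± 0.60, edgeR adjusted p = 0.0398). Tie1, an orphan receptor of the angiopoietin system, measured 4.50, 3.40, 3.93 and 2.38 CPM in the mutant, with 3 counts over both wild-type libraries, a ratio of 40.7 with a counting interval from 13.8 to 199 (adjusted p = 0.0131). Eltd1 measured 7.50, 7.22, 9.45 and 4.95 CPM against 0.153 and 0.384 CPM. Of the 16 markers, 3 (Emcn, Cldn5 and Robo4) had no count in any library, and 9 in all, Cdh5 among them, stayed under 1 CPM. Of the 9 tested, 3 were called higher and none lower (2.54% and 1.51% of all genes). Others that were expressed did not pass: Pecam1 measured 11.3 and 27.9 CPM against 52.3 CPM untreated and 0.730 and 1.78 CPM against 2.17 CPM with oxLDL (adjusted p = 0.154), Kdr 7.62 to 57.7 CPM over the 6 libraries (adjusted p = 0.214) and Flt1 1.19 to 5.12 CPM in mutant against 0.639 and 0.716 CPM (adjusted p = 0.0703). The summed level of the list was 77.7 to 133 CPM in mutant and 54.3 to 65.1 CPM in wild type, and its part in the differences was not tested. The summed level of 15 fibroblast markers was 2.87 to 6.71 CPM in mutant and 0.703 to 4.45 CPM in wild type. Vwf, which is also made by endothelium and is not on the list, measured 40.0 to 275 CPM in mutant and 7.52 and 92.7 CPM in wild type. Leaving out mutant untreated replicate 2 ended the calls of Cspg4 and Tie1 (adjusted p = 0.120 and 0.0749).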

How the data were processed

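RNA of 6 macrophage libraries was sequenced as 150-base paired reads from a stranded polyadenylated RNA kit, per the labels' protocols. The values the authors deposited are expected counts by RSEM, 1 per gene and library, and the submitters' processing notes name Bowtie2 2.1.0, RSEM 1.2.15 and edgeR. The notes name a human build although the genes are mouse, so the build and annotation behind the counts are not given in the sources used here, nor is the use of strand. Antisense and overlapping genes may therefore share reads.

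Expected counts were rounded. Of 24054 genes, 17143 had counts and 12689 passed filterByExpr over the 4 groups. edgeR 4.0.16 (R 4.3.3) fitted treatment and genotype additively with TMM factors and quasi-likelihood F-tests, called at a Benjamini-Hochberg adjusted p under 0.05. A model of 4 group means gave within-treatment differences and the interaction. SE is the log2 fold change divided by the square root of F. Shared stretches are the share of a gene's 75-base stretches found in other GENCODE M21 genes. Counting intervals and floors (3 counts) cover counting error only. The fit was tested on simulated data.

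Named genes were Fermt3 and 4 integrins, the 15 largest changes and 5 smallest p in each direction among members with at least 5 CPM and a standard symbol, and up to 4 members per described list. Other genes were named after their values were seen. The members and lists were chosen with earlier results of these data known, and lists are described by counts and medians. Alternatives tried were DESeq2 1.42.0, limma 3.58.1 voom, other size factors and filters, replicate blocks, and leaving out each library.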

Additional observations from a re-analysis of the deposited data

How the results depend on the processing

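With relative log expression size factors 510 genes were called and 254 met the rule, and requiring at least 1 CPM in every library gave 390 and 175. DESeq2 called 1513 genes, of which 663 met the rule, no filter on low counts gave 1387 and 583, and averaging 4 group means gave 1181 and 512. Asking for separation within each treatment alone, an alternative chosen after seeing the data, gave 513 in place of 256. Leaving out 1 library gave 8 to 877 called genes and 7 to 761 under the rule. In untreated cells the count was 2435 without a filter and 80 to 1822 with a mutant library left out, in place of 896. In oxLDL-treated cells it was 974 without a filter, 391 by DESeq2 and 5 to 473 with a mutant library left out, in place of 61. The cause of these shifts was not tested. Some calls rest on few counts: 54 of the 185 higher genes averaged under 1 CPM in wild type.

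The titles number the mutant libraries 1 and 2 in each treatment, both wild-type libraries carry the number 1, and nothing in the labels says that a number marks a shared animal. Across 9699 genes the difference between numbers 1 and 2 correlated at 0.32 between treatments. With the replicate block as a term 344 genes were called and 170 met the rule. With the replicate block as a random effect in limma-voom, whose consensus correlation was estimated at -0.23, 1356 were called and 597 met the rule, against 496 called by limma-voom without the block. Of the 53 called among the 58 named genes, 42 kept the call with the term and 48 with the random effect, under which 2 of the 5 uncalled passed. No fold change of the 58 reversed, and Cd207, named after its values were seen, ranged from 0 to 3.69 with 1 library left out, the 0 being without wild type untreated.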

Other observations

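A few genes outside the groups above differed between genotypes, and they were named after their values were seen. Vwf, the von Willebrand factor gene of platelets and endothelium, measured 74.5 and 40.0 CPM in untreated mutant cells, where wild type had 7.52 CPM, and 275 and 224 CPM against 92.7 CPM with oxLDL (2.04 ± 0.41, edgeR adjusted p = 0.0495). Kit, the receptor of stem cell factor, measured 4.94 and 2.62 CPM against 0.205 CPM and 69.6 and 24.1 CPM against 6.58 CPM (3.06 ± 0.61, adjusted p = 0.0484). Both were raised by oxLDL in each genotype and both lost the call without mutant untreated replicate 2 (adjusted p = 0.137 for each). The summed level of the 15 mast cell and basophil markers that include Kit was 4.03 to 70.4 CPM in mutant and 0.563 to 6.90 CPM in wild type, with 13 of the 15 under 1 CPM in every library.

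Of 33 tested antioxidant genes of the NRF2 programme 3 were called lower and none higher in the mutant (1.51% and 2.54% of all genes). In both mutant libraries of each treatment 11 lay below wild type (22.3% of all genes did) and 4 above (21.8%). Gclm, the regulatory subunit of glutathione synthesis, measured 111 and 137 CPM against 220 CPM untreated and 341 and 405 CPM against 590 CPM with oxLDL, a fall of 0.74 (SE 0.13; edgeR adjusted p = 0.0380). Blvrb, a biliverdin reductase, fell by 0.78 (adjusted p = 0.0385), and Gstp1 is described above. The transcript model 8430408G22Rik had the smallest adjusted p of the genotype comparison shared with Slc7a2 (0.000557), at 39.4 and 42.9 CPM in mutant untreated, 4.99 and 5.20 CPM in mutant oxLDL and 1.23 and 0.128 CPM in wild type.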
